A study of Mus musculus with 7 samples.

Results

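Compact myelin is the multilayered membrane that oligodendrocytes wrap around axons in the brain and spinal cord. The described genes are 9 that mature oligodendrocytes use to build and keep that membrane, namely Mbp, Mobp, Mal, Mog, Mag, Cldn11, Cnp, Ermn and Cryab. They were chosen by name, as the rows of the deposited expression table whose symbol is one of the 9, out of 24537 genes with a row. All 9 were found and tested, among 13028 genes tested in all. Tirap and Mkl1, which list Mal as an alias, are other genes and were not used.

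Oligodendrocytes were not the cells that were sorted for. Libraries were made from microglia, the brain's own macrophages, which had been sorted by intermediate CD45 and by CX3CR1. The donors were C57BL/6 mice bearing 005 gliomas, implanted tumours that model glioblastoma, and the cells were taken on day 35. Mice had received control IgG (2 libraries), an antibody to CTLA4, an inhibitory receptor of T cells (2 libraries), or the same antibody with CD4 T cells depleted (3 libraries). The last group is called the CD4 depletion libraries below, and all groups shared the strain, tumour and day. The labels do not say whether the replicates were separate or pooled animals, so p-values speak only of the variation among libraries, and part or all of that variation may be technical.

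One labelling conflict bears on everything below. Sheet numbers 29 and 30 stand in the names of the anti-CTLA4 columns, but the descriptions of those samples, and the header's command line, use 10 and 11 for the treatment. In the command line, 29 and 30 belong to knockouts of the interferon-gamma receptor. These columns are therefore called the libraries labelled anti-CTLA4, and every direction against them rests on their column names. By the depth that low values imply, 49880000 to 61860000 reads per library fell in genes. All 20 microglia markers were measured, with a summed level of 9420 to 9680 FPKM in IgG, 20100 to 23100 in the libraries labelled anti-CTLA4 and 9720 to 11700 in the CD4 depletion libraries. FPKM is a fragment count scaled to exon length and sequencing depth. Replicate 1 of the CD4 depletion group stood apart in monocyte and neutrophil markers, which summed to 1130 FPKM against 18.8 to 87.7 in the other 6 libraries. Of 4 Y-linked genes, 3 were higher in each CD4 depletion library than in each other library, and Kdm5d overlapped. The other groups also held Y-linked RNA, with Eif2s3y at 0.335 to 1.06 FPKM. A difference in sex, if there was one, cannot be told apart from CD4 depletion.

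Oligodendrocyte precursors leave the cell cycle, pass through a short-lived newly formed stage and then switch on the myelin genes, under transcription factors that include SOX10 and MYRF. Proteins of compact myelin draw the membrane layers together, while others sit at the side facing the axon, at the outer surface or in the cytoplasmic channels. In bulk RNA, fewer cells of a type and less RNA per cell cannot be told apart. The same holds for myelin RNA made by a few oligodendrocytes and myelin RNA carried inside the sorted cells.

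Mal, Mag and Cryab rose from IgG to the libraries labelled anti-CTLA4, and Mag and Cryab were lower again in the CD4 depletion libraries. The major myelin genes Mbp and Mobp varied as much between replicates as between groups. Cnp stood at its highest in IgG. Of 14 genes of oligodendrocyte precursors 12 fell from IgG to the libraries labelled anti-CTLA4, the opposite direction to Mal, Mag and Cryab. Over all tested genes 9.29% rose and 28.8% fell in that comparison. The calls of Mal, Mag and Cryab were lost with scaling to homeostatic microglia genes, with no filter on low values and with a block for replicate number.

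**Figure D1:**
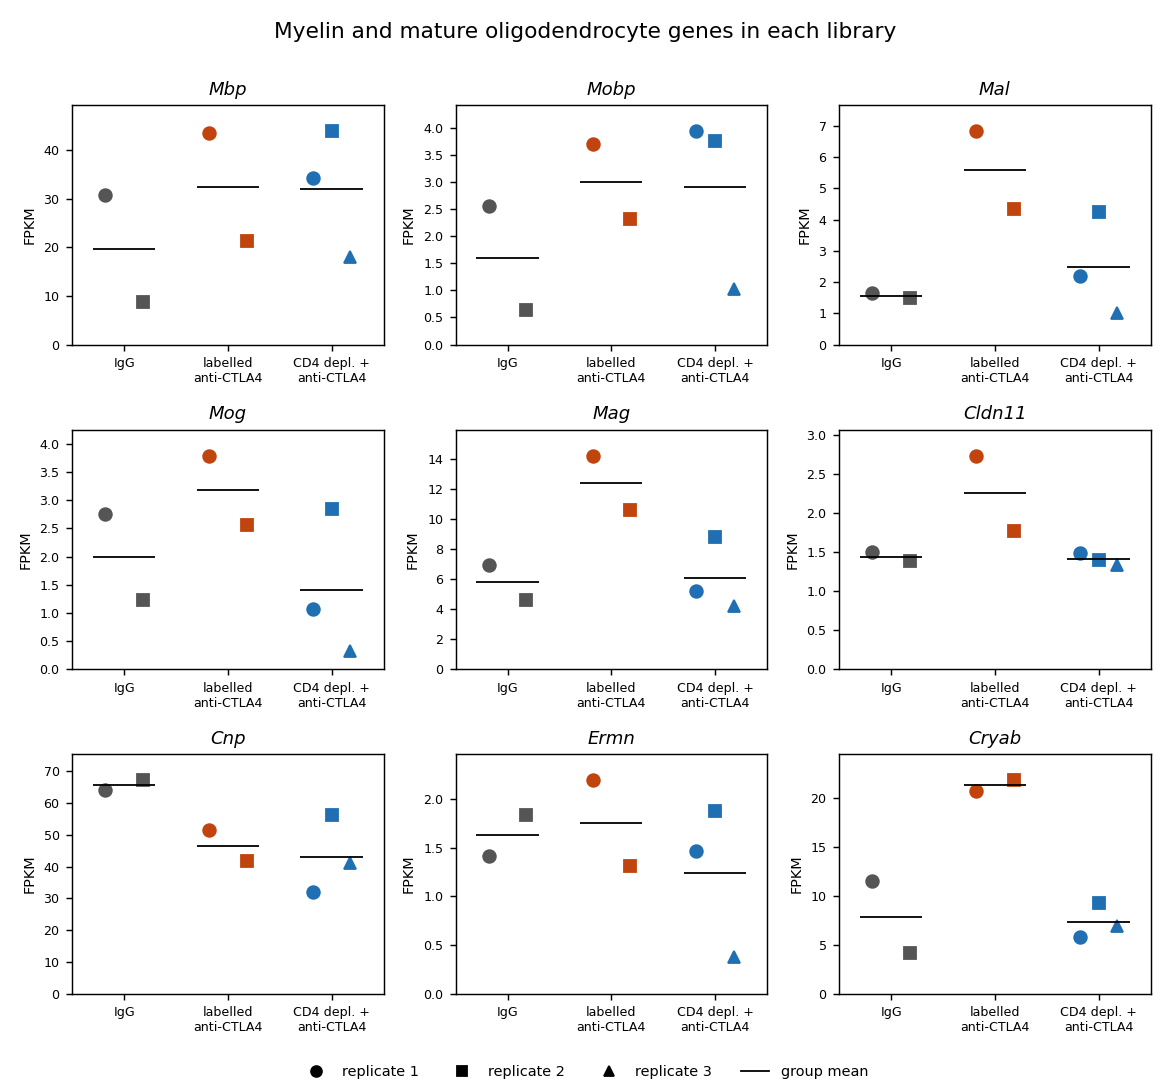
FPKM of each of the 9 genes (vertical axes, linear, from 0) in the 7 libraries, by group, with the replicate number as the symbol and the group mean as a line. Both libraries labelled anti-CTLA4 stand above all other libraries for Mal, Mag, Cldn11 and Cryab, while Cnp is highest in both IgG libraries and Mbp spreads from 8.70 to 43.9.

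Mbp encodes myelin basic protein, the cytoplasmic protein that holds the inner faces of compact myelin together. It lies on chromosome 18 from 82554463 to 82585637 (build mm10, plus strand). Mbp stood at 30.7 and 8.70 FPKM in IgG, at 43.6 and 21.4 in the libraries labelled anti-CTLA4, and at 34.2, 43.9 and 17.99 in the CD4 depletion libraries. Every group held a library that overlapped the others, and replicate 2 of IgG was the lowest of the 7. Group means were 19.7 ± 15.5 FPKM (SD, n = 2), 32.5 ± 15.7 (SD, n = 2) and 32.0 ± 13.1 (SD, n = 3). The change on the log2(FPKM + 1) scale, used for all changes here, was 0.85 for anti-CTLA4 against IgG (SE 0.63, limma adjusted p = 0.307). The interval of that difference, -0.62 to 2.32, spans a fall as well as a large rise.

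Mobp, the myelin-associated oligodendrocyte basic protein, is another small basic protein of compact myelin, on chromosome 9 from 120149742 to 120176091 (plus strand). It stood at 2.57 and 0.630 FPKM in IgG, at 3.70 and 2.32 in the libraries labelled anti-CTLA4, and at 3.94, 3.75 and 1.03 in the CD4 depletion libraries. The order of the libraries was that of Mbp, apart from the order among the top 3, and the ratio of Mbp to Mobp stayed between 8.69 and 17.5. Mobp differed by 0.71 between anti-CTLA4 and IgG (SE 0.53, limma adjusted p = 0.306), again within the spread of the replicates. Between the CD4 depletion libraries and those labelled anti-CTLA4, Mbp differed by -0.02 (SE 0.57) and Mobp by -0.12 (SE 0.48), and neither passed the test.

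Promoters were read from RefSeq (GRCm38.p6, the build of mm10), which held an entry for 7 of the 9 genes; Mbp and Cryab had none. The 250 bases upstream of each start were searched on both strands for a core motif of SOX factors (ACAAAG), of MYRF (CTGGCAC), the E-box CAGCTG and the heat shock core GAANNTTC. None of the promoters of Mal, Mog, Cldn11 and Ermn held a match. The Mobp promoter is shown because it held 6 SOX cores, at 243, 231, 221, 198, 132 and 120 bases upstream, which are in capitals in the stretch from 250 to 61 bases upstream (chr9:120149492-120149681, plus strand).
Mobp: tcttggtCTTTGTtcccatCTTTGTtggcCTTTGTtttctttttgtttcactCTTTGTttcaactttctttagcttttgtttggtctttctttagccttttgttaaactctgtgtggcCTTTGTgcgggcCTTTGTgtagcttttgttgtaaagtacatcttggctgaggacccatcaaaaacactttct
All 6 read CTTTGT as printed, the motif on the opposite strand. At least 1 SOX core occurred in 16.5% of 32851 RefSeq promoters of the same length, and 6 or more occurred in 1 of them, Mobp itself. That count was made after the matches were seen. Sox10 stood at 11.5 and 6.51 FPKM in IgG, 2.30 and 0.856 in the libraries labelled anti-CTLA4 and 3.20, 3.43 and 9.91 in the CD4 depletion libraries. Its 2 lowest libraries were thus those labelled anti-CTLA4, in which Mobp stood at 3.70 and 2.32. Whether SOX factors act on this promoter was not tested.

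Mal encodes a proteolipid of myelin that takes part in sorting membrane proteins to the sheath. The gene is on chromosome 2 from 127633226 to 127656695 (minus strand). Mal stood at 1.65 and 1.48 FPKM in IgG, at 6.83 and 4.34 in the libraries labelled anti-CTLA4, and at 2.18, 4.23 and 1.00 in the CD4 depletion libraries. Both libraries labelled anti-CTLA4 were above all 5 others, although replicate 2 of CD4 depletion came within 0.110 FPKM of the lower one. Mal rose by 1.33 against IgG (SE 0.42, limma adjusted p = 0.0428). The CD4 depletion libraries were lower than those labelled anti-CTLA4 by -1.01 on that scale, which did not pass (SE 0.39, limma adjusted p = 0.0852, interval -1.91 to -0.10). With median-of-ratios scaling this difference passed (adjusted p = 0.0472), as it did with quantile normalization and without replicate 2 of CD4 depletion. The stretch of the Mal promoter at the same distance (chr2:127656756-127656945, minus strand) is shown for contrast with Mobp, since it held none of the 4 motifs.
Mal: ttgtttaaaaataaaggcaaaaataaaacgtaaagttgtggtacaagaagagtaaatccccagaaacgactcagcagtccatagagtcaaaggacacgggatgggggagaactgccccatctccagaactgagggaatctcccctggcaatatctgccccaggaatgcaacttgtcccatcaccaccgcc

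Mag, the myelin-associated glycoprotein, is an immunoglobulin family receptor on the myelin membrane that faces the axon. It lies on chromosome 7 from 30899181 to 30914321 (minus strand). Its level was 6.96 and 4.61 FPKM in IgG, 14.2 and 10.6 in the libraries labelled anti-CTLA4, and 5.22, 8.80 and 4.22 in the CD4 depletion libraries. The libraries labelled anti-CTLA4 overlapped neither of the other groups, which overlapped each other throughout. Mag rose by 1.00 against IgG (SE 0.33, limma adjusted p = 0.0491) and fell by 0.96 in the CD4 depletion libraries against those labelled anti-CTLA4 (SE 0.30, limma adjusted p = 0.0491). Both adjusted p-values lie just inside the threshold of 0.05. RefSeq lists starts of Mag upstream of the deposited row's own start, and the promoter of one of them, 542 bases upstream, is shown because it held a SOX core (126 bases upstream) and a MYRF core (68 bases upstream), in capitals and in that order (chr7:30914924-30915113, minus strand).
Mag: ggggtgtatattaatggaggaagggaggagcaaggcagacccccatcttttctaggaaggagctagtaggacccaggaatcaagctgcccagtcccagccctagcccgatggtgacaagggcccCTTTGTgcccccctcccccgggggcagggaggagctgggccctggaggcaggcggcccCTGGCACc
The MYRF core occurred in 4.19% of the 32851 promoters. The promoter at the deposited start of Mag held none of the motifs. Myrf, the gene of that factor, was low and not tested, with 0.292 to 1.23 FPKM in IgG, 0.293 to 0.553 in the libraries labelled anti-CTLA4 and 0.362 to 0.738 in the CD4 depletion libraries.

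Mog, the myelin oligodendrocyte glycoprotein, is an immunoglobulin family protein of the outermost myelin surface and a late marker of maturation. The gene is on chromosome 17 from 37010740 to 37023398 (minus strand). Mog stood at 2.75 and 1.23 FPKM in IgG, at 3.80 and 2.56 in the libraries labelled anti-CTLA4, and at 1.06, 2.84 and 0.314 in the CD4 depletion libraries. All groups overlapped, and the lowest value corresponded to about 50 reads. It had the widest range of the 9 genes, 12.1-fold between the highest and the lowest library. Neither its difference between anti-CTLA4 and IgG (0.51, SE 0.50) nor that between CD4 depletion and anti-CTLA4 (-0.92, SE 0.45, limma adjusted p = 0.154) passed. Zfp57, a gene on the opposite strand that lies 10 bases from Mog, stood at 0.370 and 0.416 FPKM in the libraries labelled anti-CTLA4 and at 0.981 to 2.95 in the others. Reads on both strands were counted, but no other gene's row overlapped any of the 9.

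Cldn11 encodes claudin 11, the tight junction protein that seals the layers of myelin, on chromosome 3 from 31149920 to 31164326 (plus strand). It stood at 1.50 and 1.38 FPKM in IgG, at 2.74 and 1.77 in the libraries labelled anti-CTLA4, and at 1.49, 1.40 and 1.34 in the CD4 depletion libraries. The 5 libraries of the IgG and CD4 depletion groups lay within 0.161 FPKM of each other, and both libraries labelled anti-CTLA4 were above them. Even so, the difference of 0.40 from IgG did not pass (SE 0.21, limma adjusted p = 0.167), nor did that of -0.42 between CD4 depletion and anti-CTLA4 (SE 0.19, adjusted p = 0.133). With quantile normalization both passed (adjusted p = 0.0322 and 0.0323).

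Cnp encodes the cyclic nucleotide phosphodiesterase of myelin, which keeps the cytoplasmic channels of the sheath open and is made from early in the lineage. It lies on chromosome 11 from 100574939 to 100581739 (plus strand). Cnp was the most abundant of the 9, at 64.2 and 67.2 FPKM in IgG, at 51.4 and 41.6 in the libraries labelled anti-CTLA4, and at 32.1, 56.2 and 41.0 in the CD4 depletion libraries. Both IgG libraries were above all 5 others, which overlapped. The difference of -0.50 between anti-CTLA4 and IgG did not pass (SE 0.26, limma adjusted p = 0.160), and that of -0.63 between CD4 depletion and IgG had an unadjusted p of 0.0296 but an adjusted p of 0.710 (SE 0.24). The Cnp promoter is shown because it too held a SOX core (167 bases upstream) and a MYRF core (81 bases upstream), in capitals (chr11:100574689-100574878, plus strand), while the gene's levels ran unlike those of Mag.
Cnp: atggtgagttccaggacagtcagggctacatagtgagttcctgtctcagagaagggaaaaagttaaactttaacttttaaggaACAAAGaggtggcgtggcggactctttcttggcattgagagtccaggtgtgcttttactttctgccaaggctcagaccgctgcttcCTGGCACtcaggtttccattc

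Ermn encodes ermin, a protein of late oligodendrocytes that binds the actin cytoskeleton. The gene is on chromosome 2 from 58045115 to 58052752 (minus strand). It was the lowest of the 9 on average, at 1.42 and 1.84 FPKM in IgG, 2.20 and 1.31 in the libraries labelled anti-CTLA4, and 1.47, 1.88 and 0.379 in the CD4 depletion libraries. The groups overlapped fully, and replicate 3 of CD4 depletion was low by itself. Ermn differed by 0.05 between anti-CTLA4 and IgG (SE 0.37, limma adjusted p = 0.918, interval -0.81 to 0.91), which leaves room for a sizeable change in either direction.

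Cryab encodes alpha-B crystallin, a small heat shock protein that is abundant in oligodendrocytes and also made by astrocytes and in muscle and lens. It lies on chromosome 9 from 50752971 to 50756635 (plus strand). Cryab stood at 11.5 and 4.13 FPKM in IgG, at 20.7 and 21.9 in the libraries labelled anti-CTLA4, and at 5.82, 9.32 and 6.89 in the CD4 depletion libraries. The libraries labelled anti-CTLA4 were close to each other and clear of all others. Cryab rose by 1.48 against IgG (SE 0.40, limma adjusted p = 0.0262, interval 0.55 to 2.41) and fell by 1.44 in the CD4 depletion libraries against those labelled anti-CTLA4 (SE 0.36, limma adjusted p = 0.0276). Hspb2, a small heat shock gene that lies 616 bases away on the opposite strand, stood at 0.192 and 0.257 FPKM in IgG, at 1.35 and 1.16 in the libraries labelled anti-CTLA4 and at 0.154 to 0.371 in the CD4 depletion libraries. It reached 1 FPKM in no other group, so it was in the tested genes only through these 2 libraries.

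**Figure D2:**
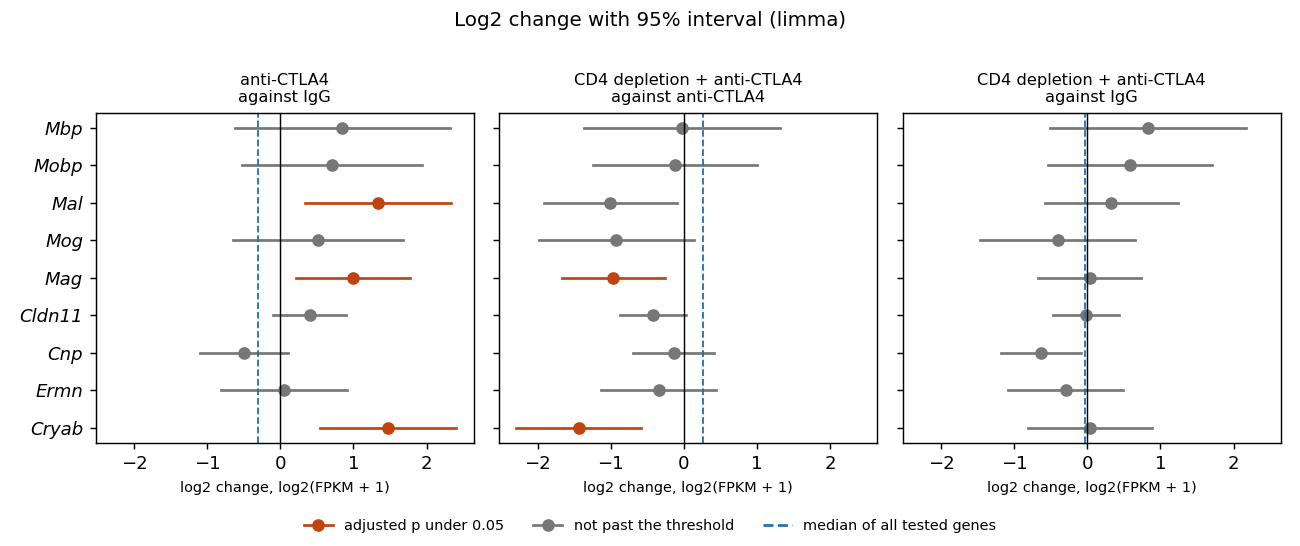
Log2 change of each gene (points) with its 95% interval (lines) in the 3 comparisons, from limma on log2(FPKM + 1), with the median of all tested genes as a dashed line. Mal, Mag and Cryab passed in the first panel, Mag and Cryab in the second and none in the third.

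Set against IgG, the libraries labelled anti-CTLA4 had 3 of the 9 genes higher and 0 lower past the threshold, beside 38.0% of all tested genes in either direction, 9.29% higher and 28.8% lower. The median change of the 9 was 0.71, and that of all tested genes was -0.31. Changes were positive for 8 genes and negative for Cnp, and the median of the 9 was 0.96 with median-of-ratios scaling, 1.04 with quantile normalization and -0.0035 with the homeostatic scaling described next. The libraries did not overlap for Mal, Mag, Cldn11 and Cryab on the higher side and for Cnp on the lower side, against 22.8% and 54.1% of all genes. Leaving out any 1 of the 4 libraries compared ended the call of Mal, Mag and Cryab. It also leaves 1 library in a compared group, so these losses say little about the 3 genes. Changes with 1 library left out ranged from 1.06 to 1.61 for Mal, 0.74 to 1.25 for Mag and 0.84 to 2.12 for Cryab. Leaving out replicate 3 of CD4 depletion, which only adds to the shared spread, ended the call of Mag (limma adjusted p = 0.0501). Scaling each library to a list of 26 homeostatic microglia genes, of which 10 rose and 0 fell in this comparison, brought Mal to 0.67, Mag to 0.20 and Cryab to 0.65, none past the threshold, and made Cnp pass as lower (-1.38, adjusted p = 0.0178).

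For CD4 depletion against anti-CTLA4, 0 of the 9 genes were higher and 2 lower, against 29.4% of all tested genes in either direction, 22.8% higher and 6.59% lower. All 9 changes were negative, with a median of -0.42 against 0.27 for all tested genes. Groups did not overlap for Mal, Mag, Cldn11 and Cryab, all lower, against 15.7% of all genes on that side. This comparison shares the libraries labelled anti-CTLA4 with the first, so the directions are not independent of each other. Cryab kept its call without replicate 1 of CD4 depletion, the library with high monocyte markers (-1.30, adjusted p = 0.0325), and Mag did not (-0.90, adjusted p = 0.0650). Both calls were lost without replicate 3 of CD4 depletion or either library labelled anti-CTLA4, Mag also without either IgG library and Cryab without replicate 2 of CD4 depletion. Leaving out a library labelled anti-CTLA4 leaves 1 in that group, so the losses there say little about Mag and Cryab.

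For CD4 depletion against IgG, 0 of the 9 genes passed by limma, as did 0.0% of all tested genes. The median change was 0.03 for the 9 and -0.04 for all tested genes. Of the 9, Cnp was the only gene with an unadjusted p under 0.05, beside 6.53% of all tested genes, and the only one whose libraries did not overlap (lower, beside 16.2% of all genes). The interval was wide for Mbp, whose difference was 0.83 (SE 0.57), and narrower for Cldn11, at -0.02 (SE 0.19, interval -0.47 to 0.435). Cldn11 stood at only 1.34 to 1.50 FPKM in these 2 groups, where the log2(FPKM + 1) scale understates change. Cryab differed by 0.04 and Mag by 0.03.

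Centred on its own mean, each gene could be set against the median profile of the 9 over the 7 libraries. That profile was 0.11 and -0.55 in IgG, 0.75 and 0.08 in the libraries labelled anti-CTLA4, and -0.21, 0.26 and -0.65 in CD4 depletion, so the libraries of each group differed by 0.66 or more. Mag lay closest to it, with a root mean square difference of 0.193 in log2 units, and Cnp farthest, at 0.527. The closest pairs were Mal with Mag (0.231), Mbp with Mobp (0.257) and Mog with Mag (0.277), and the most distant was Mbp with Cnp (0.884). Among 7691 other genes with a mean of at least 5 FPKM, whose median difference from the profile was 0.593, the closest included Cp (0.199), Nbl1 (0.210), Tmem39b (0.245) and Bid (0.282). These are descriptions over 7 shared libraries, with no test.

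**Figure D3:**
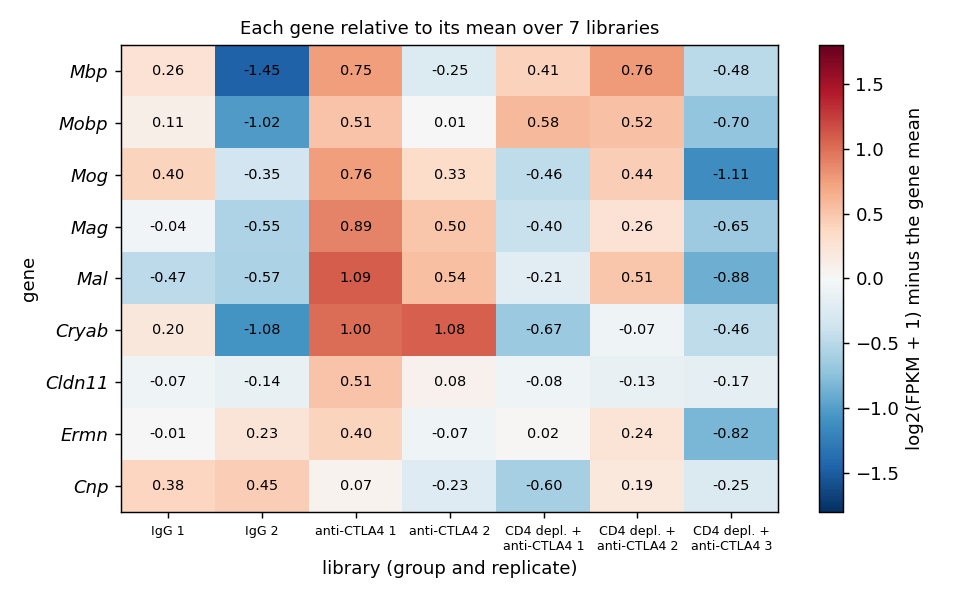
Each gene's log2(FPKM + 1) minus its mean over the 7 libraries (colour and printed number), with genes as rows and libraries as columns. Replicate 2 of IgG is low for Mbp (-1.45), Mobp (-1.02) and Cryab (-1.08), replicate 3 of CD4 depletion is low for Mog (-1.11), Mal (-0.88) and Ermn (-0.82), and Cnp has its 2 highest values in IgG.

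The groups accounted for unlike shares of the spread in the log2 values. Differences between groups made up 75.0% of it for Cryab, 70.8% for Cldn11, 67.9% for Mag, 64.0% for Mal and 58.2% for Cnp. The share was 39.2% for Mog, 26.5% for Mbp, 24.8% for Mobp and 18.9% for Ermn. It was not computed over all tested genes, so whether the larger shares are unusual in these libraries was not tested. The genes with the smaller shares thus varied mainly between libraries of the same group. Replicate 3 of CD4 depletion was the lowest of the 7 libraries for 5 genes (Mal, Mog, Mag, Cldn11 and Ermn), and replicate 2 of IgG was the lowest for Mbp, Mobp and Cryab.

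Other genes of the lineage were read from lists chosen with earlier results of these data known. Of 30 other mature oligodendrocyte and myelin genes, 26 were tested, and for anti-CTLA4 against IgG 2 rose, 5 fell and 19 did not pass, with a median of -0.20. Those with the smallest p were Evi2a (1.28, SE 0.16, limma adjusted p = 0.00936), Jam3, a junctional adhesion molecule (-2.24, SE 0.31, adjusted p = 0.00936), and Omg, a glycoprotein of the myelin and neuron surface (-2.66, SE 0.42, adjusted p = 0.00969). Evi2a stood at 54.6 and 63.3 FPKM in IgG, 151 and 139 in the libraries labelled anti-CTLA4 and 64.1 to 73.5 in CD4 depletion. The median change of the 20 microglia genes against IgG was 1.16, and which cells carried the Evi2a RNA was not tested. The median of the list of other mature oligodendrocyte genes turned positive with median-of-ratios scaling (0.05, 5 higher and 5 lower) and with quantile normalization (0.05). It was -0.74 with homeostatic scaling. By calls under the deposited scaling this list was thus split in direction, whereas the 9 described genes had 3 higher, 0 lower and 6 not past the threshold. Over all tested genes 9.29% were higher and 28.8% lower. For CD4 depletion against anti-CTLA4, 5 of the 26 rose and 3 fell (median 0.31), beside 22.8% and 6.59% of all tested genes (median 0.27). The list's counts became 12 and 0 with homeostatic scaling (median 0.85) and 2 and 4 with quantile normalization (median 0.07). For CD4 depletion against IgG 0 passed.

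Most listed genes of earlier stages of the lineage were lower in the libraries labelled anti-CTLA4. Over all tested genes 9.29% rose and 28.8% fell against IgG. Whether oligodendrocyte, tumour or microglial RNA carried the changes of these lists was not tested. Of the 14 precursor genes 12 fell against IgG and 0 rose, with a median of -2.17, and the same number fell under each of the other 3 scalings, with medians of -1.83 to -2.59. The proteoglycan Cspg4, also known as NG2, stood at 5.31 and 6.00 FPKM in IgG, at 0.957 and 0.355 in the libraries labelled anti-CTLA4 and at 3.87, 3.16 and 3.40 in CD4 depletion (-2.03 against IgG, SE 0.23, limma adjusted p = 0.00936). Of 8 tested genes of newly formed oligodendrocytes 5 fell and 0 rose (median -1.76), among them Gpr17, a receptor that marks that stage (-2.08, SE 0.32, adjusted p = 0.00939). Of 9 tested transcription factors of the lineage 6 fell and 0 rose (median -1.73), among them Olig1 (-3.91, SE 0.65, adjusted p = 0.00995). In CD4 depletion against anti-CTLA4, 11 of 14 precursor genes, 2 of 8 newly formed genes and 4 of 9 factors rose, and 0 fell. Over all tested genes 22.8% rose and 6.59% fell in that comparison, so the count of newly formed genes was near the share of all genes.

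The mean log2 level of the 9 genes minus that of the 14 precursor genes was -0.91 and -1.82 in IgG, 1.58 and 1.82 in the libraries labelled anti-CTLA4, and -0.19, -0.49 and -1.18 in CD4 depletion. The libraries labelled anti-CTLA4 were thus the only ones of the 7 in which the myelin genes stood above the precursor genes. This difference within a library does not change when the library's FPKM are rescaled, apart from the effect of the pseudocount. Which cells carried the RNA of either list was not tested. Precursor genes moved more than myelin genes between the groups: their mean log2 level was 3.73 and 4.05 in IgG against 1.82 and 1.14 in the libraries labelled anti-CTLA4, while that of the 9 genes was 2.82 and 2.24 against 3.40 and 2.96. Of the 9, Cnp ran nearest to the median profile of the precursor genes, with a root mean square difference of 0.812, against 1.06 to 1.62 for the others.

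**Figure D4:**
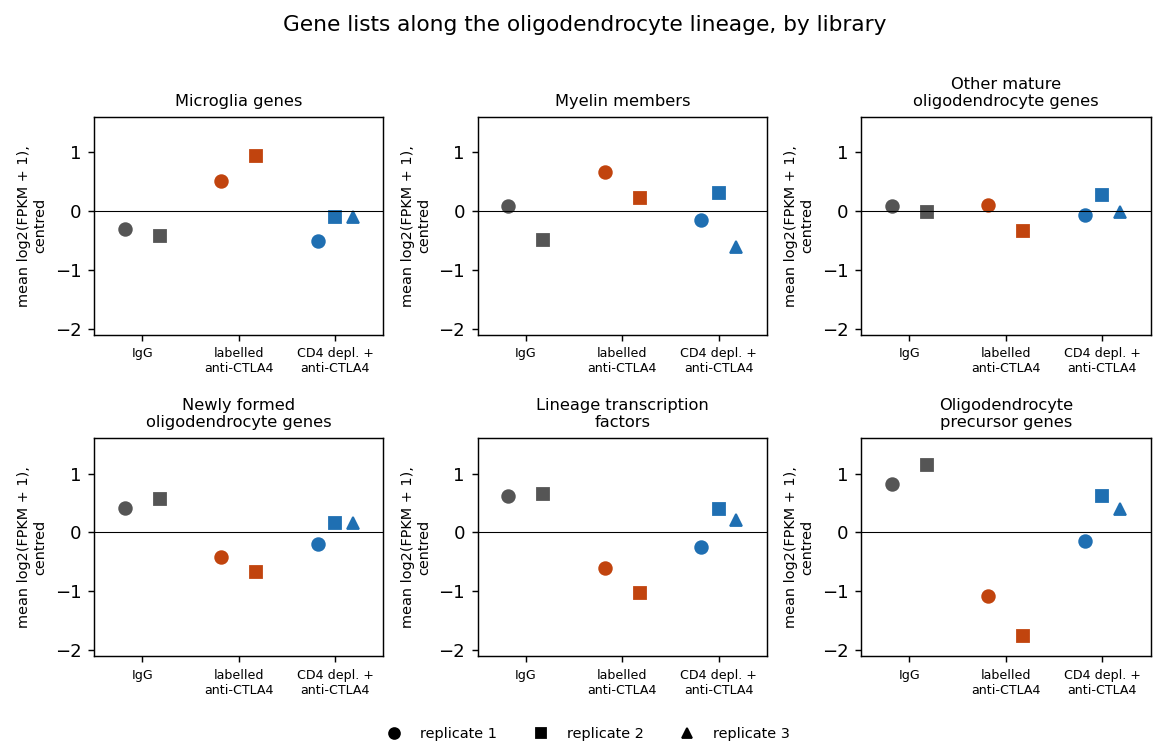
Mean log2(FPKM + 1) of each gene list in each library, centred on its mean over the 7 libraries, by group, with the replicate number as the symbol. Precursor genes, lineage factors and newly formed genes are lowest in both libraries labelled anti-CTLA4, where the microglia genes and the first replicate of the 9 myelin genes are highest.

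Markers of other cells were read in the same libraries, where 9.29% of all tested genes rose and 28.8% fell in anti-CTLA4 against IgG. Of 20 microglia genes 11 rose and 0 fell in the libraries labelled anti-CTLA4 against IgG, with a median of 1.16 (4 rose with quantile normalization and 0 with homeostatic scaling). Red blood cell genes, of which 5 of 7 were tested and 4 rose, summed to 328 and 47.4 FPKM in IgG, 980 and 939 in the libraries labelled anti-CTLA4, and 166, 576 and 216 in CD4 depletion. Within IgG and within CD4 depletion, the library with the most red blood cell RNA (replicates 1 and 2) also had the highest median profile of the 9 genes. The other libraries did not follow closely. Replicate 3 of CD4 depletion had more red blood cell RNA than replicate 1 (216 and 166 FPKM) but a lower profile (-0.65 and -0.21). The libraries labelled anti-CTLA4, at 980 and 939 FPKM, had profiles of 0.75 and 0.08. Of 11 tested endothelial and mural genes 5 rose and 0 fell, with a sum of 26.9 to 27.1 FPKM in IgG, 89.3 to 142 in the libraries labelled anti-CTLA4 and 39.4 to 52.7 in CD4 depletion. With homeostatic scaling 1 endothelial or mural gene rose and 1 fell, and with quantile normalization 1 red blood cell gene rose. Of 8 tested monocyte and neutrophil genes 0 rose and 1 fell (Vcan, also a precursor gene). Astrocyte genes, of which 4 of 12 fell and 0 rose, summed to 220 to 290 FPKM in IgG, 87.9 to 129 in the libraries labelled anti-CTLA4 and 194 to 322 in CD4 depletion. Neuron genes had 4 of 12 tested, of which 2 fell, and summed to 4.62 to 35.3 FPKM over the 7 libraries. None of these lists had a gene at 0 in every library, and their part in the levels of the 9 genes was not tested.

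For Cryab, the other small heat shock and chaperone genes are the nearer comparison. Of 12 tested genes of that list, 4 rose and 2 fell in the libraries labelled anti-CTLA4 against IgG, beside 9.29% and 28.8% of all tested genes. The median of the list was 0.80 (0.01 with homeostatic scaling, 0 higher and 4 lower). Hspb2 is among the 4 that rose, and its call was favoured by the filter, since it was tested only through the libraries where it was high. Hsph1, a large chaperone of the same heat shock response, fell by 1.39 (SE 0.29, limma adjusted p = 0.0137), and Bag3, a co-chaperone of small heat shock proteins, rose by 0.90 (SE 0.21, adjusted p = 0.0168). In CD4 depletion against anti-CTLA4, 1 rose and 3 fell, beside 22.8% and 6.59% of all tested genes. Among the 3 was Dnajb1, an HSP40 co-chaperone (-1.52, SE 0.43, limma adjusted p = 0.0361), and Hspb2 again is in that count. With homeostatic scaling 4 rose and 0 fell in this comparison, and with median-of-ratios scaling or quantile normalization 0 rose and 4 fell, so the balance of directions depended on the scaling. The list summed to 196 to 252 FPKM in IgG, 312 and 826 in the libraries labelled anti-CTLA4 and 192 to 368 in CD4 depletion.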

How the data were processed

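RNA sequencing of sorted microglia gave 7 libraries in 3 groups (2, 2 and 3). Per the file headers, the authors made the deposited FPKM values with HOMER, counting exons on both strands of mm10 with 1 entry kept per gene. STAR, HOMER and DESeq2 are in the submitters' processing notes; their versions are not given in the sources used here. The deposited exon length column was used only to turn FPKM into implied reads. Low values were whole multiples of 1 read: in each library 268 to 301 low values were examined, and 100% came within 0.1 of a whole read. Of 40 libraries in the header's command line, 33 have no column.

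Values were analysed as log2(FPKM + 1), which understates the change of low genes, with limma 3.58.1 in R 4.3.3. A gene was tested if 2 or more libraries reached 1 FPKM. Each of the 9 genes reached 1 FPKM in 6 or 7 libraries. The 3 groups shared 1 spread with a mean-variance trend. Tests were two-sided, with Benjamini-Hochberg adjustment over the 13028 genes and calls at 0.05, a level that exact permutation of groups this small cannot reach. The script was tested on simulated data. The members and lists were chosen with earlier results of these data known. From each list at most 3 genes were named, those with the smallest p. Sox10 and Myrf were added for the promoter motifs, Hspb2 and Zfp57 as neighbours, and genes near the median profile by likeness. Some genes that these rules take are not reported here. Gene annotation was GENCODE M21, and no printed promoter base lies in an annotated exon. Alternatives covered the pseudocount, the filter, the scaling, the fit, the replicate block and each library left out.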

Additional observations from a re-analysis of the deposited data

How the results depend on the processing

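Limits first: 2 or 3 libraries per group, differing by up to several-fold in the myelin genes, allow only wide intervals, and depth is not the limit at 50 or more implied reads per value. The 5 calls among the 9 genes were recomputed 83 times; 39 kept the call, 44 lost it and 0 reversed, and of 358 recomputed values of the other 22 results 33 reversed in sign. For anti-CTLA4 against IgG, the 3 called genes became 1 with a pseudocount of 0.1, 0 with no filter, 1 (lower, Cnp) with homeostatic scaling, and 0 to 3 with 1 library left out. For CD4 depletion against anti-CTLA4, the 2 became 1 with a pseudocount of 0.1, 0 with no filter, 4 with quantile normalization, 0 with homeostatic scaling, 1 on the 2 groups alone, 1 with no trend, and 0 to 2 with 1 library left out. Over all genes, the 4957 calls of the first comparison became 1877 with no filter and 0 to 6069 with 1 library left out; the 3827 of the second became 762, 7610 with homeostatic scaling and 0 to 5291; the 0 of the third became 3 with no filter. No filter tests more genes, and leaving out a library leaves fewer samples; the causes of the other shifts were not tested.

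Scaling moved the median of all genes from -0.31 to -0.01 (median-of-ratios and quantile) or -0.99 (homeostatic) in the first comparison, and from 0.27 to 0.01, -0.01 or 0.93 in the second. Higher and lower calls were 1210 and 3747 in the first, and 2132 and 2050, 1928 and 2081, or 76 and 7140 under those scalings; in the second they were 2969 and 858, and 1455 and 1648, 1452 and 1460, or 7507 and 103. Homeostatic scaling reversed Mbp (-0.0035), Mog (-0.088), Cldn11 (-0.14) and Ermn (-0.46) in the first and Mbp (0.83), Mobp (0.50), Cldn11 (0.12), Cnp (0.73) and Ermn (0.14) in the second. In CD4 depletion against IgG, Cldn11 reversed to 0.015 with median-of-ratios and 0.0052 with quantile scaling. With 1 library left out, anti-CTLA4 against IgG ranged from -0.0048 to 1.70 for Mbp and -0.18 to 0.29 for Ermn; CD4 depletion against anti-CTLA4 from -0.52 to 0.47 for Mbp, -0.37 to 0.29 for Mobp and -0.34 to 0.052 for Cnp; and CD4 depletion against IgG from -0.027 to 1.68 for Mbp, -0.021 to 0.67 for Mal, -0.23 to 0.28 for Mag, -0.053 to 0.016 for Cldn11, -0.51 to 0.024 for Ermn and -0.60 to 0.68 for Cryab.

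The deviations of same-numbered libraries from their group means correlated between -0.205 and 0.123, which cannot decide whether replicate numbers were a pairing. Within IgG, and within the libraries labelled anti-CTLA4, the deviations are mirror images, so these correlations are not independent of each other. With the replicate block, 0 of the 9 genes passed in each comparison, and all-gene calls became 2665, 0 and 0. The block reversed Mbp (0.33) and Mobp (0.29) in CD4 depletion against anti-CTLA4, and Cldn11 (0.0034) and Ermn (0.024) in CD4 depletion against IgG. A crossed pairing of anti-CTLA4 and IgG, chosen after seeing the data, gave 3 genes and 5196 of all.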

Other observations

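Myelin is rich in cholesterol and other lipids, which oligodendrocytes make themselves. Of 18 tested genes of cholesterol and myelin lipid synthesis, 1 rose and 6 fell in the libraries labelled anti-CTLA4 against IgG (median log2 change -0.61). Over all tested genes 9.29% rose and 28.8% fell in that comparison. In CD4 depletion against anti-CTLA4, 7 of the 18 rose and 1 fell, beside 22.8% and 6.59% of all tested genes. With median-of-ratios scaling 1 rose and 3 fell in the first comparison and 3 rose and 1 fell in the second, and with homeostatic scaling 0 rose and 13 fell (median -1.34) and 15 rose and 0 fell (median 1.35). Cyp51, a demethylase of cholesterol synthesis, stood at 18.99 and 21.0 FPKM in IgG, 9.21 and 6.83 in the libraries labelled anti-CTLA4 and 18.9, 22.0 and 25.5 in CD4 depletion. It fell by 1.23 in the first comparison (SE 0.20, limma adjusted p = 0.00995) and rose by 1.36 in the second (SE 0.19, adjusted p = 0.0118). Elovl1, which lengthens very long fatty acids, was the gene that rose, by 0.90 (SE 0.18, adjusted p = 0.0122), a call lost with homeostatic scaling. Whether oligodendrocyte, tumour or microglial RNA carried these changes was not tested.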
